A study of Mus musculus with 18 samples.

Results

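The enzymes that cut the extracellular matrix and their inhibitors were followed across 9 groups of mouse tumors. The set holds every gene whose symbol is Mmp with a number (and, in some, a letter), Adamts with a number, or Timp1 to Timp4, which gave 46 of the 23284 genes in the deposited tables: 23 Mmp genes, 19 Adamts genes and 4 Timp genes. The rule reads the symbol alone.

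Poly-A RNA was sequenced from subcutaneous GL261 glioma, LLC (Lewis lung carcinoma) and B16F10 melanoma tumors, each grown from a mouse tumor cell line. The groups with cyclophosphamide (CPA, an alkylating drug given here at 140 mg/kg) were CPA/6d GL261(B6), CPA/6d LLC and CPA/6d B16F10 tumors in immune competent C57BL/6 (B6) mice, whose strain the labels give as C57BL/BNTac, and CPA/6d and CPA/9d GL261(scid) tumors in ICR scid mice, which lack functional B and T cells but keep macrophages and natural killer cells. CPA/6d stands for an injection every 6 days and CPA/9d for an injection every 9 days, with tumors collected 6 days after the last of 2 injections in GL261 and of 3 injections in LLC and B16F10. Untreated tumors of each of the 4 combinations of tumor and host were the reference. Mice were male and, per the labels, 12 weeks old. Each group was 2 RNA pools of 3 to 12 tumors, so the spread given here is between pools and not between single tumors. The scid libraries were prepared with a different kit, without strand by the labels, whereas the B6 libraries kept strand. Host and kit cannot be told apart in the levels, and only responses were compared between hosts.

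Matrix metalloproteases are zinc enzymes, made as inactive precursors, that cut collagens, elastin and other matrix proteins as well as cytokines and their receptors at the cell surface. Most are secreted, and the membrane-type members stay at the cell surface, where Mmp14 activates the precursor of Mmp2. ADAMTS enzymes are secreted proteases with thrombospondin repeats, of which several cut the proteoglycans aggrecan and versican and others trim procollagens. TIMPs bind the active site of these proteases. In tumors much of this set is known to come from fibroblasts, macrophages, neutrophils and endothelial cells as well as from the malignant cells.

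The 18 libraries held 6169217 to 15979644 reads over genes, so a count of 0 allows up to 3 reads, or 0.188 to 0.486 CPM (reads scaled by library size). Counting intervals and floors cover counting error only. The glial lineage list (6 genes) summed to 764 to 2440 CPM in GL261(B6) and 1020 to 3680 CPM in GL261(scid) libraries, but also to 535 to 691 CPM in B16F10 libraries, and to at most 8.64 CPM in LLC libraries. The melanocyte list (6 genes) summed to 21000 to 27700 CPM in B16F10 libraries and to at most 80 CPM elsewhere. The epithelial list (5 genes) did not single out LLC, at 492 to 579 CPM there, 46.4 to 63.9 CPM in CPA/6d GL261(B6), 144 CPM or more in untreated GL261(B6) and 219 to 1510 CPM in GL261(scid) libraries. Skeletal muscle genes (5 genes) differed between pools of 1 group, with 13.3 and 1200 CPM in CPA/6d B16F10, 40.7 and 269 CPM in CPA/6d LLC and 67.6 and 689 CPM in CPA/6d GL261(B6) tumors. The B16F10 pools also differed most from each other over all genes, by 11.1 and 11.2 times the counting variance, against 2.28 to 4.11 times in the other groups.

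Of the 46 members, 8 had too few reads to be tested in any comparison: Mmp1a, Mmp1b, Mmp7, Mmp20, Mmp21, Mmp24, Adamts18 and Adamts19, with at most 13 reads in any library. Mmp7, which encodes matrilysin, had 2 reads in all 18 libraries, and Mmp20, which encodes the enamel protease enamelysin, had 1 read. The filter asked for 10 reads, scaled to the median depth, in 2 or more libraries. Since a gene can pass that filter through the group in which it is high, medians over the tested members are given as descriptions.

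A row of 10 Mmp genes lies on chromosome 9 (mm9, chr9:7272514-7699585, 427 kb), in the order Mmp13, Mmp12, Mmp1b, Mmp3, Mmp1a, Mmp10, Mmp8, Mmp27, Mmp20 and Mmp7, and 5 of the 6 that could be tested were among the 12 members with the largest changes in GL261(B6) tumors. Their start sites are therefore shown, as 120 bases that end 1 base before the start of transcription (RefSeq, GRCm38.p6). Capitals mark TGANTCA, the letters bound by AP-1 factors (the pattern is its own reverse complement), and TATAAA, searched on the strand of the gene.
Mmp13 (chr9:7272394-7272513, + strand): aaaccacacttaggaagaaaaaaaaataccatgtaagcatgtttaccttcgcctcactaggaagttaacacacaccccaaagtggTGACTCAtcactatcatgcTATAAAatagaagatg
Mmp12 (first start, chr9:7344277-7344396, + strand): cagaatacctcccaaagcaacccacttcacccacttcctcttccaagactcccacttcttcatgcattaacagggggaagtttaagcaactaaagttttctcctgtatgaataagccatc
Mmp12 (second start, chr9:7347254-7347373, + strand): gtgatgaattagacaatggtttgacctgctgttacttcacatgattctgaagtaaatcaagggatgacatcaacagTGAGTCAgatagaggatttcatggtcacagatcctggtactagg
Mmp3 (chr9:7445702-7445821, + strand): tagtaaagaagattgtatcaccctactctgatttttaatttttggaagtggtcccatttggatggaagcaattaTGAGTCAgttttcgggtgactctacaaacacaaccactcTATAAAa
Mmp10 (chr9:7502222-7502341, + strand): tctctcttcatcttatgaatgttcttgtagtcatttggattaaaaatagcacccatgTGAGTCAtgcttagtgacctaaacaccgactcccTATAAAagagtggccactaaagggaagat
Mmp8 (chr9:7558309-7558428, + strand): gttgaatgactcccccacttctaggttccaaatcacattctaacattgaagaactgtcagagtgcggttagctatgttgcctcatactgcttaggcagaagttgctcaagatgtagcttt
Mmp27 (chr9:7571276-7571395, + strand): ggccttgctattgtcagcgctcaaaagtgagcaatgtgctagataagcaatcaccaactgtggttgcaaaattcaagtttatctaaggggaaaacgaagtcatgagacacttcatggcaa

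RefSeq promoters (250 bases before to 50 after a start) were found for 32 of the 46 members, 35 start sites in all. TGANTCA was present in 8 of these 35 (22.9%), all 8 in the chromosome 9 cluster, and in 7.81% of all 32851 promoters. It was present at 1 or more start sites of Mmp13, Mmp12, Mmp3, Mmp10, Mmp1a, Mmp1b, Mmp20 and Mmp7, of which the last 4 had almost no reads in these tumors. TATAAA was present in 10 of the 35 (28.6%), against 8.32% of all promoters. Neither was found in the window of Mmp8, of Mmp27 or of the first start of Mmp12. A match is a run of letters and not a measured site.

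**Figure D1:**
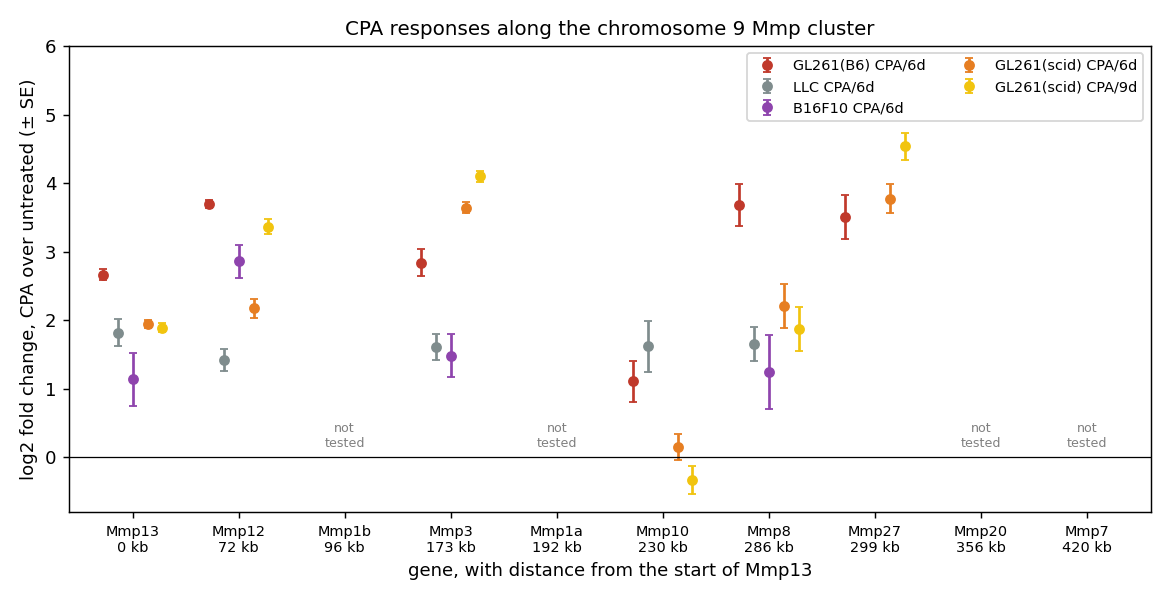
Log2 fold change of CPA-treated over untreated tumors (y axis, points with SE bars from limma, 2 pools per group) for the 10 Mmp genes of the chromosome 9 cluster in their order along the chromosome (x axis, with distance from the start of Mmp13 in kb). Mmp13, Mmp12, Mmp3 and Mmp8 lay above 0 in all 5 responses (in B16F10 tumors Mmp12 alone of these passed the test), and 4 of the genes had too few reads to be tested.

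Levels of different genes were compared per kilobase of exon (GENCODE vM1, mm9). In CPA/6d GL261(B6) tumors the leading members were Timp1 at 138 to 140 CPM per kb over the 2 pools, Mmp14 at 120 to 142, Mmp12 at 128 to 134, Mmp13 at 128 to 132 and Mmp2 at 110 to 123 CPM per kb. On these lengths those 5 could not be ranked firmly, since the range of Mmp14 overlapped those of the other 4. Reads were counted over RefSeq genes, but lengths are of all GENCODE exons. For Mmp12 that length is 7237 bases, against 1072 to 3276 for the rest of its cluster. If the RefSeq exons of Mmp12 are shorter, its level per kb here is too low and its rank is open. In untreated GL261(B6) tumors Timp1 led at 107 to 123 CPM per kb, clear of Mmp15 at 55.0 to 59.9 and Adamts1 at 54.8 to 56.2 CPM per kb, which overlapped each other. In untreated LLC tumors Timp2 (144 to 155 CPM per kb) stood above Mmp14 (114 to 117), and in untreated B16F10 tumors Timp2 (71.3 to 79.4 CPM per kb) also stood above Mmp14 (63.1 to 66.3). In scid hosts Mmp2 led in CPA/9d tumors (503 to 511 CPM per kb) and in CPA/6d tumors (375 to 431), whereas Timp1 led in untreated tumors (223 to 229 CPM per kb).

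The first comparison asked how the set responds to CPA in GL261(B6) tumors. Of the 34 members tested, 21 rose (background 17.7% of all genes tested) and 5 fell (background 6.52%). A call needed more than a 2-fold change and p below 0.001 before adjustment in limma. The median log2 change was 1.51 over these members and -0.03 over all genes tested. By family, 13 of 17 tested Mmp genes rose and 2 fell, 6 of 13 Adamts genes rose and 2 fell, and 2 of 4 Timp genes rose and 1 fell. Summed over each family, Mmp genes reached 2410 to 2540 CPM in CPA/6d pools, against 766 to 790 CPM in untreated pools, and Timp genes reached 1280 to 1330 CPM, against 354 to 385 CPM in untreated pools. In whole-tumor RNA, more cells of a type and more RNA per cell cannot be told apart.

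Among the collagenases, Mmp8, the collagenase of neutrophil granules, had 8.88 and 9.11 CPM in CPA/6d GL261(B6) pools (the deeper library given first throughout), against 0.608 and 0.574 CPM in untreated pools. This was a log2 change of 3.68 (SE 0.31, adjusted p = 3.52e-07). Mmp13, the main interstitial collagenase of mouse, had 352 and 343 CPM in CPA/6d pools, against 50.1 and 59.4 CPM in untreated pools (log2 change 2.67, SE 0.08, adjusted p = 4.61e-11). In both genes each treated pool was above each untreated pool. Mmp8 was low, with 99 and 76 reads in CPA/6d pools, against 5 and 4 reads in untreated pools. The size of its change thus rests on few untreated reads.

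Of the gelatinases, which cut denatured and basement membrane collagen, Mmp2 had 333 and 373 CPM in CPA/6d GL261(B6) pools, against 77.5 and 100 CPM in untreated pools (log2 change 2.00, SE 0.10). Mmp9 had 13 and 25.5 CPM in CPA/6d pools, against 5.35 and 7.61 CPM in untreated pools (log2 change 1.49, SE 0.27, adjusted p = 0.000343). The Mmp9 pools did not overlap, but without the less deep CPA/6d pool the log2 change was 1.01 and no longer passed the test.

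The stromelysin Mmp3, which cuts proteoglycans and activates other Mmp precursors, had 131 and 198 CPM in CPA/6d GL261(B6) pools, against 17.9 and 28.0 CPM in untreated pools (log2 change 2.84, SE 0.20). Mmp12, the elastase of macrophages, had 969 and 924 CPM in CPA/6d pools, against 73.5 and 72.3 CPM in untreated pools. This was a log2 change of 3.69 (SE 0.06, adjusted p = 1.77e-12). Mmp10, the other stromelysin of the cluster, did not pass the test at 8.25 and 15.5 CPM in CPA/6d pools, against 4.02 and 6.60 CPM in untreated pools (log2 change 1.11, adjusted p = 0.00492).

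The membrane-type members split. Mmp14 had 312 and 368 CPM in CPA/6d GL261(B6) pools, against 76.4 and 84.8 CPM in untreated pools (log2 change 2.07, SE 0.08), and Mmp25, a leukocyte protease held by a lipid anchor, had 11.9 and 16.4 CPM, against 2.07 and 2.73 CPM in untreated pools (log2 change 2.50, SE 0.24). Mmp15 went the other way, with 24.1 and 23.6 CPM in CPA/6d pools, against 260 and 239 CPM in untreated pools, a log2 change of -3.38 (SE 0.08, adjusted p = 1.21e-11). Mmp16, also of the membrane type and known from brain, had 23.9 and 21.1 CPM in CPA/6d pools, against 97.8 and 85.7 CPM in untreated pools (log2 change -2.03, SE 0.10). Mmp17, whose product is likewise held by a lipid anchor, did not pass, at 77.7 and 80.0 CPM in CPA/6d pools, against 72.4 and 69.8 CPM in untreated pools (log2 change 0.15, SE 0.07).

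Of the remaining Mmp genes, Mmp19 had 77.2 and 75.2 CPM in CPA/6d GL261(B6) pools, against 11.9 and 14.8 CPM in untreated pools (log2 change 2.51, SE 0.12). Mmp23, whose product is anchored by its amino end, had 16.1 and 21.7 CPM in CPA/6d pools, against 3.89 and 4.74 CPM in untreated pools (log2 change 2.09, SE 0.20). Mmp27 was low, with 86 and 68 reads (7.71 and 8.15 CPM) in CPA/6d pools, against 5 and 4 reads (0.608 and 0.574 CPM) in untreated pools, a log2 change of 3.5 (SE 0.32). None of these 3 genes had a treated pool within the range of the untreated pools.

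Among ADAMTS genes the largest change was in Adamts15, which encodes a versican-cutting protease. It had 45.9 and 49.7 CPM in CPA/6d GL261(B6) pools, against 3.04 and 3.73 CPM in untreated pools (log2 change 3.78, SE 0.16, adjusted p = 7.33e-10). Adamts2, which trims the amino ends of fibrillar procollagens, had 107 and 118 CPM in CPA/6d pools, against 20.3 and 25.7 CPM in untreated pools (log2 change 2.29, SE 0.11). Adamts5, Adamts4, Adamts14 and Adamts12 also rose, with log2 changes of 2.09, 1.43, 1.01 and 1.01. The first pair encode aggrecan-cutting enzymes, Adamts14 a procollagen protease and Adamts12 a protease of cartilage oligomeric matrix protein. Adamts17 fell by 1.49 and Adamts20 by 1.04 on the log2 scale. Calls near the threshold rested on single pools: Adamts14 was lost without the deeper untreated pool (0.86) or the less deep CPA/6d pool (0.98), Adamts12 without the deeper untreated (0.79) or the deeper CPA/6d pool (0.93), and Adamts20 without the less deep untreated (-0.96) or the less deep CPA/6d pool (-0.94). Adamts1, which cuts versican and aggrecan, did not pass, at 269 CPM in both CPA/6d pools, against 298 and 291 CPM in untreated pools.

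**Figure D2:**
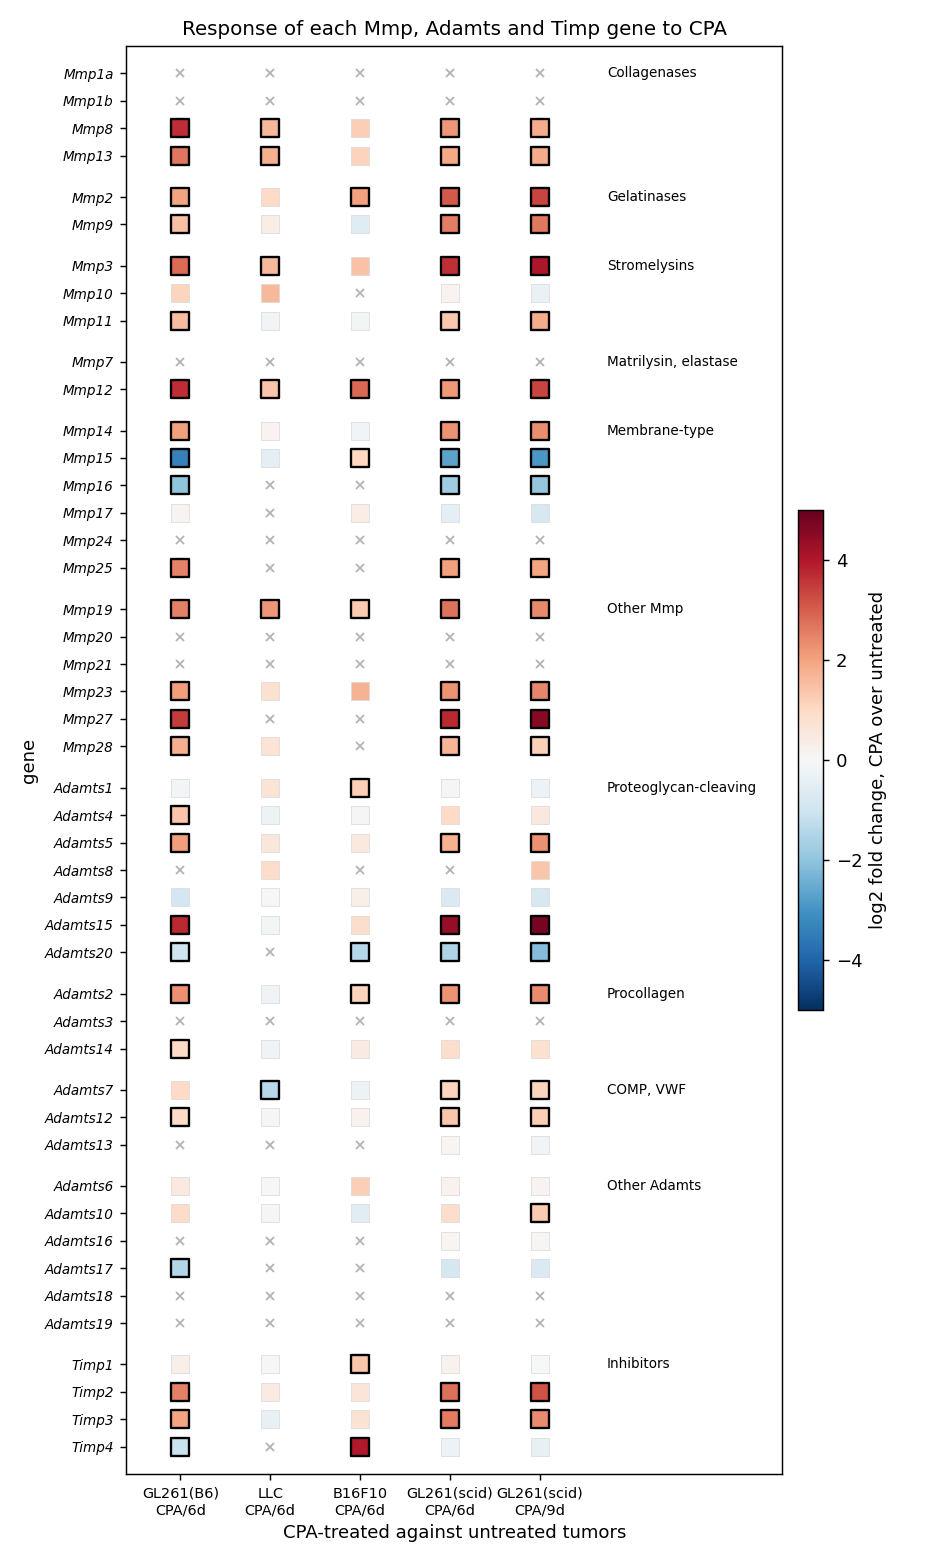
Log2 fold change of CPA-treated over untreated tumors (colour) for all 46 members, ordered by role (rows), in the 5 CPA responses (columns). Black frames mark genes that passed the test and crosses mark genes with too few reads. The 3 GL261 columns hold most of the frames, with Mmp15, Mmp16 and Adamts20 in blue, while Mmp12 and Mmp19 are framed in all 5.

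The inhibitors did not move as a block. Timp2, which both inhibits Mmp14 and takes part in its activation of Mmp2, had 426 and 448 CPM in CPA/6d GL261(B6) pools, against 71.8 and 80.0 CPM in untreated pools (log2 change 2.52, SE 0.07, adjusted p = 2.71e-11). Timp3, the matrix-bound inhibitor that also acts on ADAMTS enzymes, had 775 and 707 CPM in CPA/6d pools, against 180 and 186 CPM in untreated pools (log2 change 2.01, SE 0.06). Timp1, a soluble inhibitor, had 124 and 123 CPM in CPA/6d pools, against 94.7 and 109 CPM in untreated pools, and its log2 change of 0.28 (SE 0.08) did not reach the fold threshold. Timp4 had 4.57 and 3.60 CPM in CPA/6d pools, against 7.79 and 9.90 CPM in untreated pools, a log2 change of -1.09 (SE 0.23). The Timp4 call was lost without the less deep untreated pool (-0.91), without the less deep CPA/6d pool (-0.93), with 10 added (-0.93) and in a fit of all 12 B6 libraries (-1.09, adjusted p = 0.0532). Timp3 shares 1733 exonic bases with the antisense gene Syn3, and where strand was not used the reads of the pair cannot be told apart. The ratio of summed Mmp to summed Timp CPM was 1.81 to 1.98 in CPA/6d pools, against 2.05 to 2.16 in untreated pools, lower in the treated pools with no overlap. In the other models this ratio was 0.92 to 1.1 in CPA/6d LLC pools, against 0.766 to 0.885 in untreated pools, and 0.548 to 0.607 in CPA/6d B16F10 pools, against 0.561 to 0.646 in untreated pools. In GL261(scid) it was 2.01 to 2.14 with CPA/9d and 1.81 to 1.91 with CPA/6d, against 1.89 to 2.11 in untreated pools. It was thus higher in treated LLC pools and overlapped the untreated pools in B16F10 and GL261(scid) tumors. The sums were not divided by gene length, so Timp3 (8144 exonic bases) weighs more in them than Timp1 (888). Per kilobase, Timp1 led the untreated GL261(B6) pools (107 to 123 CPM per kb) and rose little with CPA/6d (138 to 140). Mmp12 had 128 to 134 CPM per kb in CPA/6d pools, against 10 to 10.2 in untreated pools. Mmp13 had 128 to 132, against 18.7 to 22.2, and Mmp14 had 120 to 142, against 29.4 to 32.7. Timp2 (109 to 115, against 18.4 to 20.5) and Timp3 (86.8 to 95.2, against 22.1 to 22.8) also rose. Mmp15 fell, at 5.43 to 5.55, against 55 to 59.9. The directions given above therefore hold for summed CPM alone. The ratio was not computed per kilobase, where its direction can differ in any group.

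**Figure D3:**
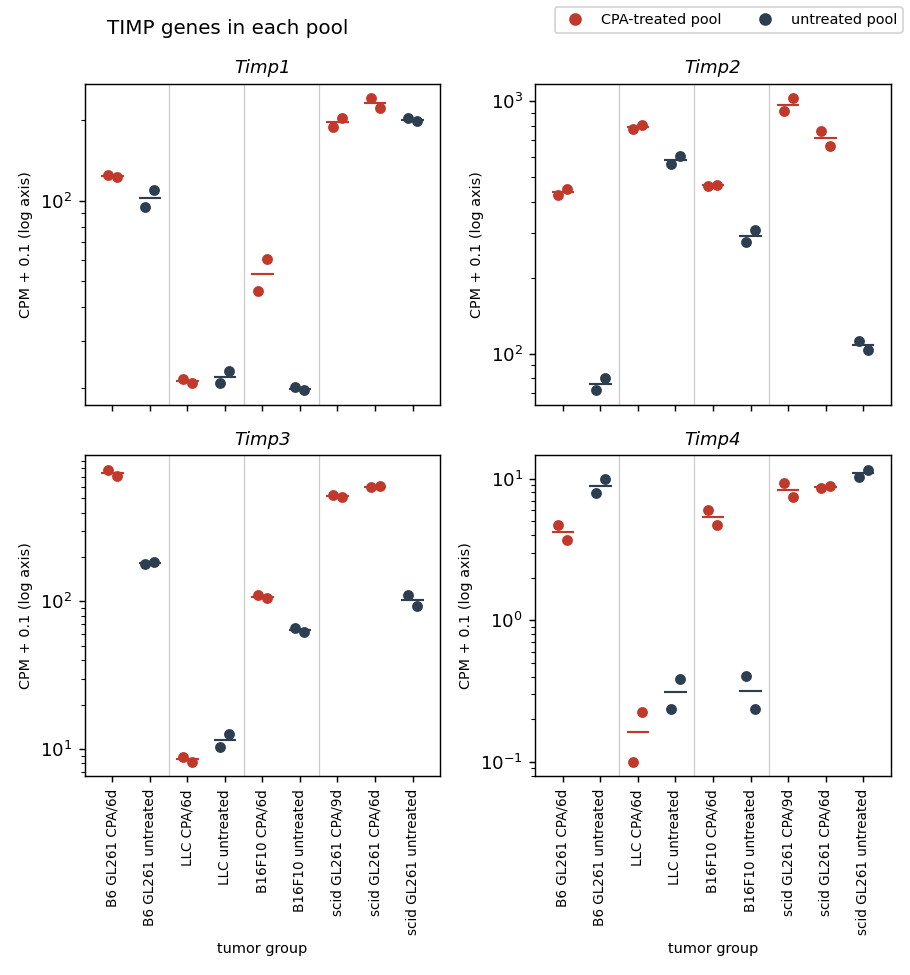
CPM plus 0.1 (y axis, log scale) of the 4 Timp genes in each library of the 9 tumor groups (x axis), with 1 point per pool and a bar at the mean of 2 pools. Timp2 and Timp3 were higher in CPA-treated than in untreated GL261 pools of both hosts, and Timp4 stood at 5.95 and 4.58 CPM in CPA/6d B16F10 pools, against 0.301 and 0.134 CPM in untreated B16F10 pools.

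Marker genes of other cell types moved in the same samples. In CPA/6d GL261(B6) tumors 7 of 8 macrophage markers rose, with the list at 3540 to 3870 CPM in CPA/6d pools, against 581 to 613 CPM in untreated pools. Of 8 fibroblast markers 7 rose (11500 to 12100 CPM, against 3690 to 4160 CPM), and of 8 neutrophil markers 6 rose (206 to 293 CPM, against 17.4 to 18.1 CPM with 1 marker at 0 reads in untreated pools). All 6 genes of the glial lineage fell, with the list at 764 to 811 CPM in CPA/6d pools, against 2400 to 2440 CPM in untreated pools. Of the other lists, 2 of 8 endothelial, 3 of 4 adipocyte and 1 of 4 mast cell markers rose. The part of these cell types in the changes of the proteases was not tested.

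The same comparison was made for CPA/6d in GL261(scid) tumors. Of 36 members tested, 20 rose (background 19%) and 3 fell (background 8.8%), with a median log2 change of 1.37, against -0.03 over all genes tested. The same 13 Mmp genes rose as in GL261(B6) tumors, and Mmp15, Mmp16 and Adamts20 fell in both hosts. Of the members that rose, 19 were shared, 90.5% of those in GL261(B6) and 95% of those in GL261(scid) tumors, where all genes that rose overlapped by 78.1% and 67.1% of each list. Of the members that fell, 3 were shared, 60% of those in GL261(B6) and 100% of those in GL261(scid) tumors, against 78.3% and 53.6% for all genes that fell. Adamts4 and Adamts14 (higher) and Adamts17 and Timp4 (lower) passed in GL261(B6) alone and Adamts7 in GL261(scid) alone, and none of these 5 differed between hosts by the test of the difference. The groups of the 2 hosts shared no library.

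Of the genes with the largest changes, Adamts15 had 106 and 85.6 CPM in CPA/6d GL261(scid) pools, against 4.05 and 5.02 CPM in untreated pools (log2 change 4.40, SE 0.13). Mmp27 had 229 and 152 reads in CPA/6d pools, against 15 and 11 reads in untreated pools (log2 change 3.78, SE 0.21). Mmp3 had 277 and 230 CPM in CPA/6d pools, against 20.1 and 20.7 CPM in untreated pools (log2 change 3.64, SE 0.08). These 3 genes were all over 10 times higher in each treated pool than in either untreated pool. Mmp19 changed by 2.72 (SE 0.18), Mmp23 by 2.26 (SE 0.10) and Adamts2 by 2.23 (SE 0.07) on the log2 scale.

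Mmp2 reached 1308 and 1139 CPM in CPA/6d GL261(scid) pools, against 151 and 145 CPM in untreated pools (log2 change 3.06, SE 0.07), and Mmp9 reached 19.8 and 20.1 CPM, against 2.87 and 3.92 CPM in untreated pools (log2 change 2.56, SE 0.17). Mmp14 had 759 and 733 CPM in CPA/6d pools, against 156 and 166 CPM in untreated pools (log2 change 2.23, SE 0.05). Mmp15 had 36.5 and 36.2 CPM in CPA/6d pools, against 224 and 247 CPM in untreated pools (log2 change -2.67, SE 0.06). These membrane-type genes moved apart in this host too.

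Of the inhibitors, Timp2 had 761 and 665 CPM in CPA/6d GL261(scid) pools, against 112 and 104 CPM in untreated pools (log2 change 2.74, SE 0.07), and Timp3 had 593 and 606 CPM, against 110 and 92.3 CPM in untreated pools (log2 change 2.59, SE 0.08). Timp1 had 241 and 222 CPM in CPA/6d pools, against 203 and 198 CPM in untreated pools, with no overlap and a log2 change of 0.23 (SE 0.06) that was under the fold threshold. Timp4 had 8.49 and 8.75 CPM in CPA/6d pools, against 10.2 and 11.4 CPM in untreated pools, and did not pass (log2 change -0.30, SE 0.14). Alongside, 8 of 8 macrophage markers and 7 of 8 fibroblast markers rose and 4 of 6 glial lineage genes fell, and all 5 skeletal muscle markers rose, to 1190 to 1340 CPM in CPA/6d pools, against 26.8 to 166 CPM in untreated pools. Of 8 endothelial markers 6 rose (421 to 491 CPM in CPA/6d pools, against 160 to 171 CPM in untreated pools), and all 4 adipocyte markers rose (78.6 to 78.8 CPM, against 3.56 to 13.8 CPM). Of 4 neutrophil markers tested 3 rose, with the list of 8 at 75.6 to 92.8 CPM, against 15.1 to 15.7 CPM. The part of these cell types was not tested.

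With CPA/9d, 21 of 37 members tested rose (background 20.1%) and 3 fell (background 10.9%) against the same untreated GL261(scid) pools, so this response is not independent of the one to CPA/6d. Adamts15 had 122 and 130 CPM in CPA/9d pools, against 4.05 and 5.02 CPM in untreated pools (log2 change 4.80, SE 0.12). Mmp27 changed by 4.54 (SE 0.20), Mmp3 by 4.10 (SE 0.08), Mmp2 by 3.40 (SE 0.05) and Mmp9 by 2.65 (SE 0.18) on the log2 scale. Mmp12 changed by 3.37 (SE 0.11), Mmp23 by 2.45 (SE 0.11), Mmp19 by 2.40 (SE 0.09) and Adamts2 by 2.37 (SE 0.08). The members that fell were Mmp15 (-2.93, SE 0.07), Adamts20 (-2.16, SE 0.13) and Mmp16 (-1.94, SE 0.10). Timp2 had 914 and 1029 CPM in CPA/9d pools, against 112 and 104 CPM in untreated pools (log2 change 3.18, SE 0.07), and Timp3 had 524 and 509 CPM, against 110 and 92.3 CPM (log2 change 2.37, SE 0.07). Timp1 (log2 change -0.02, SE 0.06) and Timp4 (-0.37, SE 0.16) did not pass. In the same pools 8 of 8 macrophage, 7 of 8 fibroblast, 8 of 8 endothelial, 5 of 5 skeletal muscle and 4 of 4 adipocyte markers rose and 5 of 6 glial lineage genes fell. Of 5 neutrophil markers tested 2 rose, with the list of 8 at 80.7 to 81.9 CPM, against 15.1 to 15.7 CPM in untreated pools. The macrophage list stood at 3310 to 3600 CPM in CPA/9d pools, against 432 to 469 CPM in untreated pools, the endothelial list at 507 to 523 CPM, against 160 to 171 CPM, and the glial list at 1020 to 1030 CPM, against 3330 to 3680 CPM. Their part in the changes was not tested.

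The direct comparison of schedules called 1 of 38 members, Mmp12, as higher in CPA/9d than in CPA/6d tumors (background 0.738%), and 0 as lower (background 0.0201%). Mmp12 had 330 and 336 CPM in CPA/9d pools, against 167 and 126 CPM in CPA/6d pools and 38.1 and 27.8 CPM in untreated pools. The log2 difference of 1.2 (SE 0.10, adjusted p = 1.48e-05) was 0.99, just under the fold threshold, without the less deep CPA/6d pool. At a fold change over 1.5 Mmp27 also passed, with 22.3 and 27.3 CPM in CPA/9d pools, against 15.1 and 13.7 CPM in CPA/6d pools (log2 difference 0.78, adjusted p = 0.00216). Macrophage markers summed to 3310 to 3600 CPM in CPA/9d pools, against 3150 to 3330 CPM in CPA/6d pools, with 0 of 8 called, while all 5 skeletal muscle markers were higher (2660 to 2750 CPM, against 1190 to 1340 CPM).

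**Figure D4:**
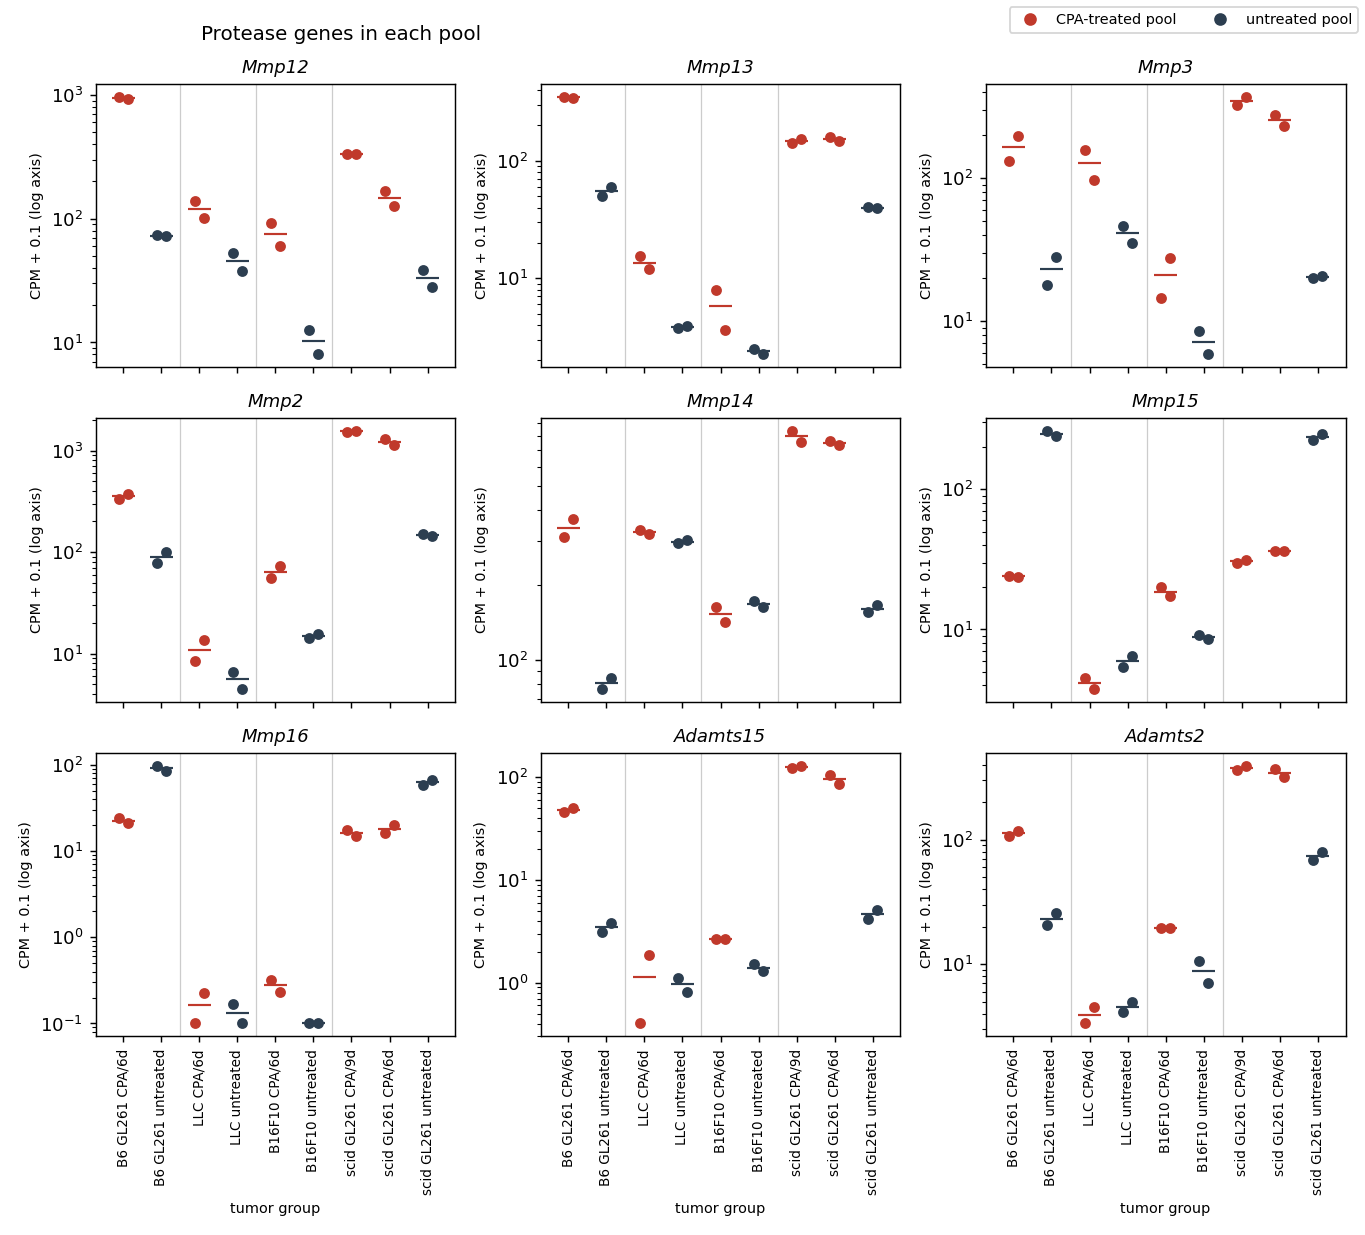
CPM plus 0.1 (y axis, log scale) of 9 protease genes in each library of the 9 tumor groups (x axis), with 1 point per pool and a bar at the mean of 2 pools. Mmp12 was above its untreated level in CPA-treated pools of every model, Mmp15 and Mmp16 were below it in GL261 tumors of both hosts, and Mmp16 was at or near 0 in LLC and B16F10 tumors.

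In LLC tumors few members moved. Of 28 tested, 5 rose (background 2.02%) and 1 fell (background 0.906%), with a median log2 change of 0.25, against -0.01 over all genes tested. Of the 5, 4 lie in the chromosome 9 cluster. Mmp12 had 139 and 102 CPM in CPA/6d LLC pools, against 52.9 and 37.9 CPM in untreated pools (log2 change 1.42, SE 0.16, adjusted p = 0.00025). Mmp3 had 157 and 97.1 CPM in CPA/6d pools, against 46.5 and 35.4 CPM in untreated pools (log2 change 1.61, SE 0.18). Mmp13 had 15.2 and 11.8 CPM in CPA/6d pools, against 3.67 and 3.82 CPM in untreated pools (log2 change 1.82, SE 0.19). In all 3 the pools of the 2 groups did not overlap.

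Mmp8 had 21.1 and 12.4 CPM in CPA/6d LLC pools, against 4.29 and 6.09 CPM in untreated pools (log2 change 1.66, SE 0.25), and neutrophil markers, of which 3 of 7 tested rose, summed to 137 to 342 CPM, against 80.3 to 103 CPM. Mmp19, outside the cluster, had 133 and 121 CPM in CPA/6d pools, against 28.4 and 27.0 CPM in untreated pools (log2 change 2.20, SE 0.07, adjusted p = 1.66e-07). Macrophage markers did not rise with Mmp12 in this tumor, at 524 to 621 CPM in CPA/6d pools, against 645 to 831 CPM in untreated pools, with 0 of 8 higher and 1 lower. Fibroblast markers summed to 3250 to 3460 CPM, against 2190 to 2300 CPM, with 3 of 8 higher. Endothelial markers fell in 6 of 8, with a median log2 change of -1.24 and sums of 151 to 157 CPM in CPA/6d pools, against 264 to 304 CPM in untreated pools. The part of these cell types was not tested. Adamts7, which cuts cartilage oligomeric matrix protein, was the member that fell, with 9.31 and 6.45 CPM in CPA/6d pools, against 24.9 and 17.4 CPM in untreated pools (log2 change -1.40, SE 0.21), and the call was lost in a fit of all 12 B6 libraries (-1.41).

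The gelatinases and inhibitors of LLC tumors did not pass the test. Mmp2 had 8.33 and 13.4 CPM in CPA/6d LLC pools, against 6.53 and 4.39 CPM in untreated pools (log2 change 0.98, SE 0.26). It passed when the deeper untreated pool (1.26) or the deeper CPA/6d pool (1.31) was left out. Mmp9 had 32.9 and 36.3 CPM, against 31.6 and 23.4 CPM in untreated pools (log2 change 0.36, SE 0.14). Timp2, the leading inhibitor here, had 779 and 803 CPM in CPA/6d pools, against 562 and 605 CPM in untreated pools, a log2 change of 0.45 (SE 0.07, adjusted p = 0.00101) that was under the fold threshold. Timp1 changed by -0.04 (SE 0.11) and Timp3 by -0.42 (SE 0.17), and Timp4, with 0 and 1 reads in CPA/6d pools, against 2 and 2 reads in untreated pools, was too low to test.

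In B16F10 tumors 8 of 28 members tested rose (background 5.88%) and 1 fell (background 3.31%), with a median log2 change of 0.81, against -0.02 over all genes tested. Mmp12 had 91.3 and 59.8 CPM in CPA/6d B16F10 pools, against 12.4 and 7.92 CPM in untreated pools (log2 change 2.86, SE 0.24, adjusted p = 6.61e-05). Mmp2 had 55.1 and 72.2 CPM in CPA/6d pools, against 14.1 and 15.4 CPM in untreated pools (log2 change 2.06, SE 0.16). In both, each treated pool was above each untreated pool. Macrophage markers summed to 451 to 538 CPM in CPA/6d pools, against 163 to 203 CPM in untreated pools, with 7 of 8 higher, and fibroblast markers to 1680 to 1910 CPM, against 1240 to 1250 CPM, with 0 of 8 higher. Endothelial markers summed to 546 to 608 CPM, against 375 to 383 CPM, with 0 of 8 called. The part of these cell types was not tested.

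Mmp19 had 10.4 and 10.5 CPM in CPA/6d B16F10 pools, against 4.91 and 3.35 CPM in untreated pools (log2 change 1.31, SE 0.25), and Mmp15 had 19.8 and 17.2 CPM, against 9.02 and 8.45 CPM in untreated pools (log2 change 1.05, SE 0.17). Adamts2 had 19.3 CPM in both CPA/6d pools, against 10.5 and 6.98 CPM in untreated pools (adjusted p = 0.00334). These 3 calls sat near the threshold. Mmp19 was lost without the less deep untreated pool (1.06) or the less deep CPA/6d pool (1.29), Adamts2 without the less deep untreated pool (0.86) and Mmp15 without the deeper CPA/6d pool (0.96). Adamts1 had 374 and 345 CPM in CPA/6d pools, against 156 and 144 CPM in untreated pools (log2 change 1.24, SE 0.09, adjusted p = 3.76e-05). Adamts20, known for its part in the spread of pigment cells over the skin of the mouse, was the member that fell, with 4.85 and 4.58 CPM in CPA/6d pools, against 14.0 and 11.4 CPM in untreated pools (log2 change -1.43, SE 0.21).

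The inhibitors of B16F10 tumors moved unlike those of GL261 tumors. Timp4 had 54 and 34 reads (5.95 and 4.58 CPM) in CPA/6d B16F10 pools, against 3 and 1 reads (0.301 and 0.134 CPM) in untreated pools, a log2 change of 4.02 (SE 0.48, adjusted p = 0.000356) that rests on 4 untreated reads. Timp1 had 45.9 and 60.4 CPM in CPA/6d pools, against 20.1 and 19.6 CPM in untreated pools (log2 change 1.38, SE 0.16). Timp2 (464 and 466 CPM, against 278 and 309 CPM in untreated pools) and Timp3 (111 and 105 CPM, against 65.7 and 61.9 CPM in untreated pools) had log2 changes of 0.64 (SE 0.10) and 0.73 (SE 0.09), under the fold threshold. Mmp9 had 1.76 and 2.96 CPM in CPA/6d pools, against 3.21 and 3.76 CPM in untreated pools (log2 change -0.60, SE 0.36).

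Across the 4 responses that share no library (CPA/6d in GL261(B6), LLC, B16F10 and GL261(scid) tumors), 2 of the 25 members tested in all of them rose in each, Mmp12 and Mmp19 (8%). The same was true of 23 of 11420 genes (0.201%). The Mmp19 call in B16F10 tumors was lost without the less deep untreated pool (log2 change 1.06) or the less deep CPA/6d pool (1.29). The share of members thus rests in part on that call. Mmp19 shares 789 exonic bases with the antisense gene 1110012D08Rik, and where strand was not used the reads of that pair cannot be told apart.

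Whether responses differed between tumor models was tested directly, as the difference of 2 log2 changes in a fit of 8 libraries. GL261(B6) tumors had 2 injections and LLC and B16F10 tumors 3, so tumor model and number of injections cannot be told apart in these differences. The response of GL261(B6) was above that of LLC for 12 of 34 members tested (background 12.6%) and below it for 1 (background 5.75%). These 12 include Mmp27, which had too few reads in LLC tumors (12 and 4 in CPA/6d pools, against 10 and 3 in untreated pools) for a response there, so its difference is not read. The largest others were in Adamts15 (3.91, SE 0.77), Adamts2 (2.50, SE 0.26), Timp3 (2.44, SE 0.14), Adamts7 (2.41, SE 0.31), Mmp12 (2.28, SE 0.22) and Timp2 (2.08, SE 0.09). Mmp14 rose only in the GL261 models by the test within each, at 334 and 321 CPM in CPA/6d LLC pools, against 295 and 303 CPM in untreated LLC pools, and its difference from LLC was 1.93 (SE 0.11, adjusted p = 2.5e-07). Mmp15 ran below, by -2.87 (SE 0.19). Mmp3, Mmp13 and Mmp19, which rose in both models, had differences of 1.23, 0.85 and 0.32 and were not called.

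**Figure D5:**
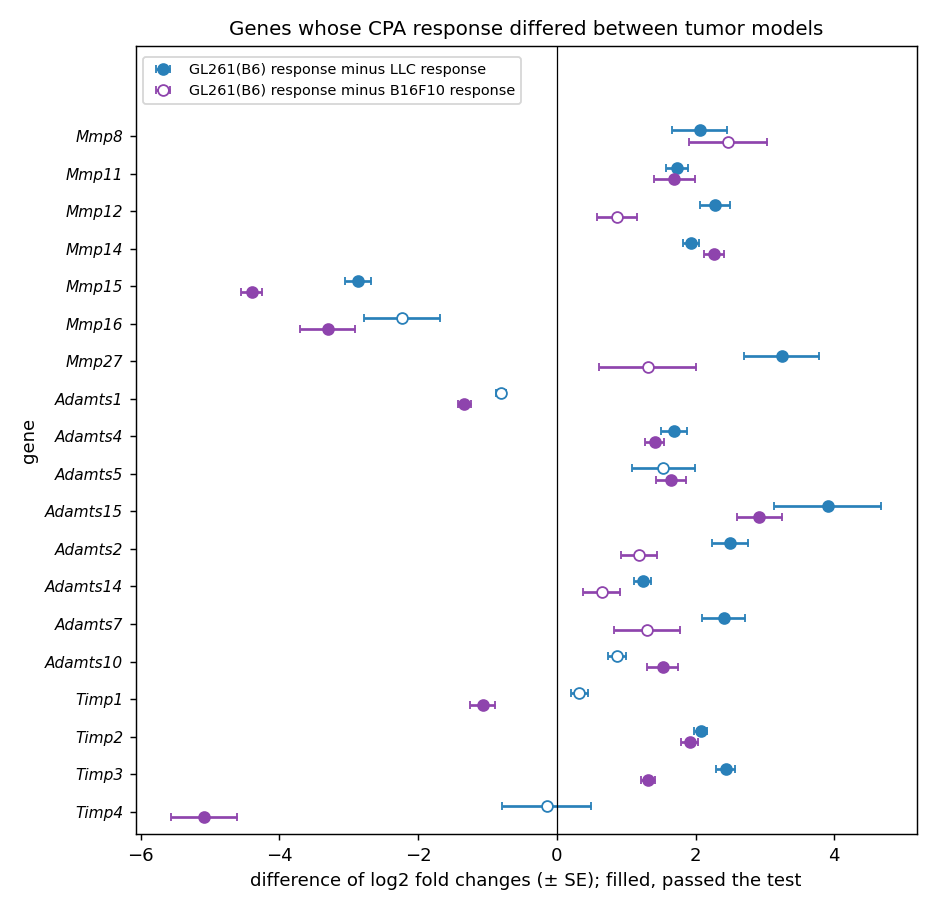
Difference of the log2 changes with CPA, GL261(B6) minus LLC or GL261(B6) minus B16F10 (x axis, points with SE bars from limma, fits of 8 libraries), for the members that passed the test in either (rows, by role). Filled points passed, of which Mmp27 against LLC and Mmp16 against B16F10 had too few reads in the other model for a response there. Mmp14, Timp2, Timp3 and Adamts15 lie to the right of 0 in both comparisons, and Mmp15 to the left in both.

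Against B16F10 the response of GL261(B6) was higher for 8 of 34 members tested (background 6.94%) and lower for 5 (background 3.98%). Mmp15 differed by -4.40 (SE 0.15, adjusted p = 6.7e-07), having fallen in GL261(B6) and risen in B16F10 tumors. Timp4 differed by -5.09 (SE 0.47), but it had 3 and 1 reads in untreated B16F10 pools, so the size is uncertain. The fall of Timp4 in GL261(B6) tumors also lost its call in several fits. The 5 include Mmp16, which had 2 and 1 reads in CPA/6d B16F10 pools, against 0 reads in untreated pools, so its difference is not read. Adamts1 differed by -1.34 (SE 0.09) and Timp1 by -1.07 (SE 0.19). Those higher in GL261(B6) were led by Adamts15 (2.92, SE 0.32), Mmp14 (2.26, SE 0.14), Timp2 (1.91, SE 0.12), Mmp11 (1.69, SE 0.30), Adamts5 (1.65, SE 0.22), Adamts10 (1.52, SE 0.23), Adamts4 (1.41, SE 0.14) and Timp3 (1.31, SE 0.10). In a fit of all 12 B6 libraries Adamts15 (2.87, adjusted p = 0.00945) and Adamts5 (1.60, adjusted p = 0.0157) lost their calls. Mmp12 did not differ by the test (0.87, SE 0.29). Both comparisons use the same GL261(B6) libraries.

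Between hosts, the CPA/6d response of GL261(B6) was above that of GL261(scid) for 1 of 36 members tested (background 1.15%) and below it for 1 (background 1.09%). The gene above was Mmp12, which rose by 3.69 in GL261(B6) and by 2.17 in GL261(scid) tumors on the log2 scale (difference 1.5, SE 0.20, adjusted p = 0.000595). The gene below was Mmp2, with 2.00 in GL261(B6) and 3.06 in GL261(scid) tumors (difference -1.09, SE 0.15, adjusted p = 0.000802). Mmp2 was no longer called without the less deep untreated GL261(B6) pool (-0.90) or without the deeper CPA/6d GL261(scid) pool (-0.99), while Mmp12 kept its call in all the fits run. The difference was -0.24 for Timp2 and -0.60 for Timp3, and neither was called. Among markers, 5 of 8 neutrophil genes responded more in GL261(B6), but only 4 of the 8 had enough reads for a test in GL261(scid). The others can have passed the filter through GL261(B6) libraries, so their differences are not read. S100a8 and S100a9, which rose in each host, were among the 5. Of the macrophage list, 0 of 8 genes were called. In the fibroblast and endothelial lists 2 of 8 genes each responded less in GL261(B6). The part of these cell types was not tested.

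Untreated GL261(B6) tumors already differed from the other models in this set. Against untreated LLC, 17 of 33 members tested were higher (background 18.4%) and 7 lower (background 12.9%). Mmp16 had 1401 reads in untreated GL261(B6) pools, against 1 read in untreated LLC pools, a ratio of 2010 (95% counting interval 360 to 79400), Mmp17 had 1081 against 2 reads (775, interval 214 to 6400) and Adamts20 had 369 against 1 read (529, interval 94.3 to 20900). Mmp15 had 260 and 239 CPM in untreated GL261(B6) pools, against 5.31 and 6.37 CPM in untreated LLC pools (log2 difference 5.46). Timp4, Mmp2, Timp3, Adamts17, Mmp13 and Adamts2 were also higher, by 4.87, 4.07, 4.06, 4.02, 3.88 and 2.41 on the log2 scale. In untreated LLC pools Timp4 had 2 and 2 reads and Adamts17 had 4 and 2. The sizes for Timp4 and Adamts17 thus depend on the 1 added to reads. Of the 7 lower in GL261(B6), Timp2 (-2.88), Mmp8 (-2.83), Mmp11 (-2.17), Mmp9 (-2.01) and Adamts14 (-1.91) differed most.

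Against untreated B16F10, 22 of 32 members tested were higher in untreated GL261(B6) tumors (background 20%) and 2 were lower, Timp2 (-1.98) and Mmp14 (-1.09) (background 16.7%). Mmp16 had 1401 reads in untreated GL261(B6) pools, against 0 reads in untreated B16F10 pools, which is at least 536-fold higher when set against a floor of 3 reads over the group. Adamts17 had 91 reads, against 3 reads (ratio 34.8, interval 11.5 to 172). Mmp17, Mmp15, Timp4, Mmp13 and Adamts6 differed by 5.24, 4.79, 4.73, 4.49 and 4.31, and Mmp28, Mmp10, Adamts9, Mmp12 and Mmp2 by 4.08, 3.70, 3.28, 2.84 and 2.54 on the log2 scale. Reads in untreated B16F10 pools were 3 and 1 for Timp4, 4 and 0 for Mmp28, 5 and 1 for Mmp10 and 4 and 5 for Adamts6. The sizes for these genes thus depend on the 1 added to reads. With the less deep untreated GL261(B6) pool left out, 15 members were called in place of 24. Mmp15 and Mmp16 were thus the 2 Mmp genes that were both far higher in untreated GL261(B6) than in either other model and lower after CPA in GL261 tumors of both hosts.

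Outside the set, 21 regulators of matrix proteases were counted. In CPA/6d GL261(B6) tumors 12 of 19 tested rose (17.7% of all genes) and 0 fell, among them Plau, the urokinase that starts the plasmin cascade (log2 change 2.53, SE 0.08), A2m, a protease trap (2.33, SE 0.18), and Tfpi2, a serine protease inhibitor of the matrix (1.83, SE 0.14). In CPA/6d GL261(scid) tumors 11 of 21 rose (19% of all genes), and they included Reck, a membrane-anchored inhibitor of Mmp enzymes (1.47, SE 0.13), which did not pass in GL261(B6) tumors (0.66, SE 0.26). In CPA/6d LLC tumors 2 of 18 rose, Thbs1 and Thbs2 (2.02% of all genes), and in CPA/6d B16F10 tumors 9 of 18 rose (5.88% of all genes). The thrombospondin Thbs2 rose in all 4, by 1.82, 1.58, 1.32 and 1.55 in GL261(B6), GL261(scid), LLC and B16F10 tumors.

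Of 6 ADAMTS-like genes, whose products have the repeats of the family without the protease, 4 of 5 tested rose in CPA/6d GL261(B6), 5 of 6 in CPA/6d GL261(scid), 1 of 3 in CPA/6d LLC and 3 of 5 in CPA/6d B16F10 tumors, where 17.7%, 19%, 2.02% and 5.88% of all genes rose. Adamtsl1 had 16.1 and 14.8 CPM in CPA/6d GL261(B6) pools, against 3.29 and 3.59 CPM in untreated pools, and 10.7 and 9.02 CPM in CPA/6d B16F10 pools, against 1.3 and 1.48 CPM in untreated pools. Of the 4 hyalectans, the proteoglycans that ADAMTS enzymes cut, Bcan (brevican) fell in GL261(B6) tumors, with 33.1 and 28.7 CPM in CPA/6d pools, against 184 and 168 CPM in untreated pools. Vcan (versican) rose in CPA/6d LLC and CPA/6d GL261(scid) tumors (log2 change 1.02 in the scid host, SE 0.05) and did not pass in GL261(B6) tumors (0.41, SE 0.07).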

How the data were processed

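The authors mapped reads to mm9 with TopHat2 2.0.13, counted them over RefSeq genes and compared groups with DESeq, per the submitters' processing notes. Each of the 10 deposited tables gives, per gene, the authors' mean signal of 2 groups, that is, read counts divided by a size factor and averaged over 2 pools. The ratios, fold changes and p-values of the authors' own comparisons in these tables were not used. Whole reads of both pools were computed from the means, which have a unique solution for all 23284 genes in all 9 groups; which pool carries which replicate number is not shown. No per-sample columns were left unused.

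Reads were scaled by TMM and tested with limma 3.58.1 (R 4.3.3, trended prior) on log2 of normalized reads plus 1. Genes needed 10 reads at the median depth in 2 libraries and 15 in all. A call needed more than a 2-fold change and p below 0.001 before adjustment, and adjusted p (Benjamini-Hochberg) cover all genes tested. Fits held the 4 libraries compared, or 8 for differences of responses. CPM was scaled over the 12 B6 and the 6 scid libraries apart. The split and the test were tested on simulated data. Pools came from separate tumors, and p-values measure the spread between pools.

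This gene family and the lists were chosen with earlier results of these data known, although the rule for members reads symbols alone. Named were all members called in a comparison, or the 12 with the largest change, and in each CPA response the 4 Timp genes, Mmp2 and Mmp9. Others, such as Mmp10 and members in counts of 5 or fewer, were named after their values were seen. Some column titles of the LLC and B16F10 tables give another dose than the labels, whose value is used. Positions are from GENCODE vM1, and promoters from RefSeq on GRCm38.p6. A planned description of protein motifs was not run. The 11 comparisons were repeated with other settings.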

Additional observations from a re-analysis of the deposited data

Results flagged for a closer look

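The responses to CPA of 28 pairs of a gene and a model comparison differed by the test of the difference itself (limma, more than 2-fold and p below 0.001 before adjustment). Each value is the log2 change with CPA in GL261(B6) tumors minus that in the other model.

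Against LLC tumors, Adamts15 (3.91), Mmp27 (3.24), Adamts2 (2.50), Timp3 (2.44), Adamts7 (2.41), Mmp12 (2.28), Timp2 (2.08), Mmp8 (2.06), Mmp14 (1.93), Mmp11 (1.73), Adamts4 (1.69) and Adamts14 (1.24) differed towards GL261(B6), and Mmp15 (-2.87) towards LLC. Mmp27 had too few reads in LLC to give a response there, so its value is no measured difference of responses. Mmp8 and Adamts15 are low in LLC, and each lost its call when single libraries were left out. For Mmp8 these were any of the 4 GL261(B6) libraries (2.03 to 2.10) or the less deep untreated (1.86) or CPA/6d (1.68) LLC pool, and for Adamts15 any of the 4 GL261(B6) libraries (3.77 to 4.06) or the deeper untreated LLC pool (3.66).

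Against B16F10 tumors, Adamts15 (2.92), Mmp14 (2.26), Timp2 (1.91), Mmp11 (1.69), Adamts5 (1.65), Adamts10 (1.52), Adamts4 (1.41) and Timp3 (1.31) differed towards GL261(B6), and Timp4 (-5.09), Mmp15 (-4.40), Mmp16 (-3.31), Adamts1 (-1.34) and Timp1 (-1.07) towards B16F10. Mmp11 lost its call without either untreated GL261(B6) pool (1.66 and 1.72), without the less deep CPA/6d GL261(B6) pool (1.58) or without the less deep CPA/6d B16F10 pool (1.44). Timp1 lost its call without the less deep untreated GL261(B6) pool (-0.97), without either CPA/6d GL261(B6) pool (-1.07 and -1.08) or without the less deep CPA/6d B16F10 pool (-0.99). In the fit of all 12 B6 libraries Adamts15 (2.87) and Adamts5 (1.60) lost their calls. The value of Mmp16 is set by the 1 added to reads, since that gene had 0 reads in untreated B16F10 pools, and it is no measured difference of responses. The value of Timp4 rests on 3 and 1 reads in untreated B16F10 pools, so its size is uncertain.

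Against GL261(scid) tumors, Mmp12 (1.5) differed towards GL261(B6) and Mmp2 (-1.09) towards GL261(scid). Groups of 2 pools are too small for a test of single outlying libraries.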

How the results depend on the processing

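All 11 counts of called members were recomputed with median-of-ratios scaling, 10 added, no filter on low reads, an adjusted p under 0.05, a fit of all libraries of the host (except for the difference between hosts) and each pool left out in turn, where the lone pool left in a group is assumed to vary like the others. No paired analysis was possible because the deposited means do not show which pool carries which replicate number. Most counts stayed within 1.5 times their value. Those that moved were the difference between GL261(B6) and LLC (21 members at adjusted p under 0.05, against 13), that between GL261(B6) and B16F10 (21 with 10 added and 21 at adjusted p under 0.05, against 13), and CPA/9d against CPA/6d (2 at a fold over 1.5, against 1). With pools left out, the count was 0 to 1 for CPA/9d against CPA/6d, 15 to 27 for untreated GL261(B6) against B16F10 (24 with all pools) and 1 to 3 for the difference between GL261(B6) and GL261(scid) (2 with all pools; 1 without the less deep untreated GL261(B6) pool or the deeper CPA/6d GL261(scid) pool). It was 20 to 27 for the GL261(B6) response (26), 6 to 8 for LLC (6) and 7 to 10 for B16F10 (9). Of 1670 values of named members under these settings, 0 changed sign with a call, 57 lost their call and 2 gained one. The count for untreated GL261(B6) against LLC varied with the pool left out nearly as widely as that against B16F10. Counts for the differences from LLC and B16F10 also varied with the pool left out. In the fit of all 12 B6 libraries Timp4, Mmp28, Adamts17 and Adamts20 lost their calls in GL261(B6). With 0.188 to 0.486 CPM as the floor of a library, members with a few reads, such as Timp4 in LLC tumors, show no detectable difference at this depth.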
